A study of Mus musculus with 12 samples.

Results

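The respiratory chain assembly factors are the proteins that build complexes I to V of oxidative phosphorylation without remaining in the finished enzymes. A list of 43 such genes was drawn up by known function, with earlier results of these data already known. It held 14 for complex I, 4 for complex II, 6 for complex III, 16 for complex IV and 3 for complex V. All 43 were found among the 51912 Ensembl gene IDs of the deposited table, and 41 of them had a value of at least 10 in at least 3 of 12 libraries, the filter that left 13865 genes for testing. The RNA came from heart ventricle of untreated mice in 4 groups of 3 libraries: wild-type (WT) females, LCHADD females, WT males and LCHADD males. LCHADD stands for deficiency of the enzyme long-chain 3-hydroxyacyl-CoA dehydrogenase, which acts in the mitochondrial oxidation of long-chain fatty acids, and the series is about acute arrhythmias in this mouse model. The allele, the strain and the age of the mice were not given in the sources used here, so no targeted gene could be used to check the labels. The labels do not say that the 3 libraries of a group came from separate animals, so p-values measure the spread between these libraries, which may be technical.

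Complexes I, III, IV and V combine subunits encoded in the nucleus with subunits encoded in the mitochondrial genome, while all subunits of complex II are nuclear. Assembly factors insert flavin, heme, copper and iron-sulfur clusters, hold subunits in partly built intermediates, and leave before the complex is active. In heart muscle, whose contraction rests largely on mitochondrial ATP, inherited loss of several of these factors causes cardiomyopathy. A change in the RNA of an assembly factor does not by itself measure the amount of the protein or of the complex.

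Library size was 15.6 to 23.2 M reads. The share of reads from the mitochondrial genome was 29.3 ± 1.94% in WT (27.5 to 32.7%) and 34.4 ± 2.70% in LCHADD (30.97 to 37.9%; SD, n = 6 each). Summed markers of ventricular cardiomyocytes were high in all libraries, at 1090610 to 1188730 normalised reads in WT and 603798 to 1060550 in LCHADD, while summed atrial markers were at 177 to 272 and 131 to 285. The ventricular sums were lower in LCHADD without overlap, and 7 of the 9 ventricular markers fell. Of all tested genes 20.6% fell. The sums of endothelial markers (9455 to 10782 in WT, 7722 to 8793 in LCHADD, 4 of 5 fell), fibroblast markers (7945 to 9465, 5576 to 7110, 6 of 6 fell) and red blood cell markers (6969 to 12553, 1913 to 4486, 5 of 5 fell) were lower in LCHADD without overlap. Smooth muscle and pericyte markers were at 9246 to 11182 and 6584 to 11061 (3 of 4 tested fell), macrophage markers at 1055 to 1444 and 1099 to 1512 (0 of 5 passed), skeletal muscle markers at 21028 to 27938 and 26044 to 33589 (1 of 2 tested rose, with Myh4 at 0 throughout), and adipocyte markers at 300.1 to 390 and 409 to 541 (the 1 marker tested of 5 rose). Acta1 and Ckm were the only skeletal muscle markers above the filter, and Cidea the only adipocyte marker. The sums for these cell types therefore rest largely on those genes. In bulk tissue, fewer cells of a type and less RNA per cell cannot be told apart, and the part of these shifts in the assembly factor results was not tested.

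Of the 41 assembly factors tested, 8 differed between LCHADD and WT when the changes in females and males were averaged: Ndufaf2, Uqcc3, Coa5 and Cox19 rose, and Ndufaf1, Tmem126b, Uqcc1 and Atpaf2 fell. This is 19.5% of the factors, beside 40.8% of all genes that passed the same test (20.3% rose and 20.6% fell). The test was limma on log2(value + 1), with p-values adjusted by Benjamini-Hochberg across the 13865 genes and a threshold of 0.05. The median change was 0.05 on the log2 scale over the factors and -0.00 over all genes, and the median size of the change was 0.10 and 0.24. No factor both passed and changed by at least 1.5-fold, which 14.7% of all genes did. The 95% interval of the change lay inside a 1.5-fold change in either direction for 37 of the 41 factors, beside 57.8% of all genes. The 4 exceptions were Cox11, Cox16 and Cox17, which were counted at low numbers, and Cox19. When total size was set by the reads of nuclear genes alone, 8 factors again passed, 6 of them higher (the 2 that no longer passed, Ndufaf1 and Tmem126b, gave way to Nubpl and Cox14), and the split over all genes moved from 2808 higher and 2853 lower to 3317 and 2457.

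**Figure D1:**
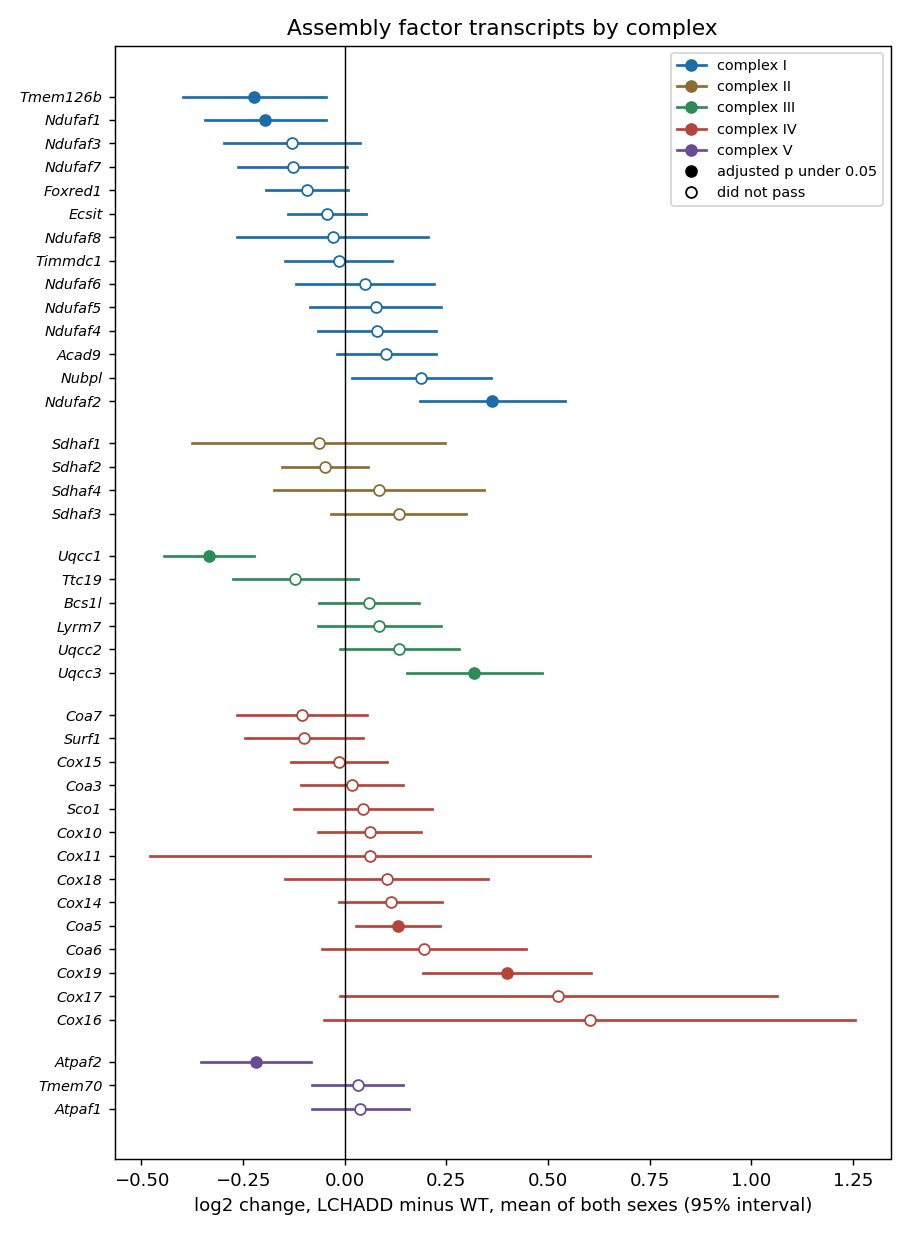
Change of each of the 41 tested assembly factors, grouped by complex: log2 of LCHADD minus WT averaged over both sexes (horizontal axis), with its 95% interval from limma. Filled points had an adjusted p under 0.05. Of the 41 intervals, 37 lie within a log2 change of 0.58 (1.5-fold) of 0, and the widest belong to Cox16, Cox17 and Cox11.

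Of the 8 factors, 5 passed in all 22 alternative analyses, which are described with the processing: Ndufaf2, Uqcc1, Uqcc3, Cox19 and Atpaf2. Their promoters are shown because these are the genes on which the results rest. Each window runs 5′ to 3′ on the gene's strand from 250 bases before to 50 bases after the RefSeq start site, in build GRCm38.p6. Capitals mark the matches to 4 motifs searched on both strands: AAGGTCA, the core of the site bound by estrogen-related receptors; AAGATGGC, a YY1 site; TGATGNAAN, the composite element of ATF4 and CHOP; and the palindromic NRF1 site of 10 letters, searched without mismatch.
Ndufaf2 (chr13:108158576-108158875, minus strand): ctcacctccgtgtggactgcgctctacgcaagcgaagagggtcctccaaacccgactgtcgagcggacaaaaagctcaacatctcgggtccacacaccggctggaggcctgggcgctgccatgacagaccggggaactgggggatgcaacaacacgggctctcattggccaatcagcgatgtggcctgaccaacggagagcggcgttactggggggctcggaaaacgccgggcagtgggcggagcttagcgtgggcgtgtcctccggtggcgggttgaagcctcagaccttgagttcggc
Uqcc1 (chr2:155930261-155930560, minus strand): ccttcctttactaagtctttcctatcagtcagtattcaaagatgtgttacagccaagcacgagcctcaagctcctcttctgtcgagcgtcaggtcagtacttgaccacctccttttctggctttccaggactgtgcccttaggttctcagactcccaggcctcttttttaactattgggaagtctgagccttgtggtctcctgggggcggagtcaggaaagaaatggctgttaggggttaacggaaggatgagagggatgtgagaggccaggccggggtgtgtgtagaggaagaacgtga
Uqcc3 (chr19:8880884-8881183, minus strand): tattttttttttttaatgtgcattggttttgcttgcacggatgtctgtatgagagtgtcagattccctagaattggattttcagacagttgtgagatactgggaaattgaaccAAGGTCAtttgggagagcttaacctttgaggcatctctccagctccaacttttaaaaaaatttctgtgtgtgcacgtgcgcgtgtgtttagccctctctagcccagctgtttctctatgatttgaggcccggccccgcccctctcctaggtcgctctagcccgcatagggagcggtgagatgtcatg
Cox19 (chr5:139345117-139345416, minus strand): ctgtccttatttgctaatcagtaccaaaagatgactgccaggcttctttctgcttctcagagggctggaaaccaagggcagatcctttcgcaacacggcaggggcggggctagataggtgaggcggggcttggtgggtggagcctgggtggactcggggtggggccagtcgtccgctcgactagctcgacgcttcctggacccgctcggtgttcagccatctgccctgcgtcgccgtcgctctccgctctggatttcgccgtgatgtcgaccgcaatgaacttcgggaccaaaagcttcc
Atpaf2 (chr11:60416985-60417284, minus strand): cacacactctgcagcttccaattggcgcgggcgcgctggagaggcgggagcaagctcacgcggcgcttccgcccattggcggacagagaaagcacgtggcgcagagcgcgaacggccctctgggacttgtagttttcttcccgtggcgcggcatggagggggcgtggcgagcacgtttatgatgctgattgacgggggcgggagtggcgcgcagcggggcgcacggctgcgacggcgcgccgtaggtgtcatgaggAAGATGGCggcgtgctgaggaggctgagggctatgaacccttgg

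The windows of Ndufaf2, Uqcc1 and Cox19 held none of the 4 motifs. Uqcc3 held AAGGTCA, starting 137 bases before the start site, and Atpaf2 held AAGATGGC in its first transcribed bases. RefSeq windows were found for 37 of the 43 factors (39 windows, with more than 1 start site for some genes). AAGATGGC was in 6 of the 39 windows, or 15.4%, beside 2.75% of all 32851 windows in the table and 3.05% of those of coding genes. The NRF1 site was in 2 windows (Ndufaf4 and Ndufaf5), 5.13% beside 0.971% of all windows and 1.33% of those of coding genes. AAGGTCA was in 1, 2.56% beside 4.72% and 4.08%, and TGATGNAAN was in 0 beside 3.95% and 3.58%. The windows of the factors had a median of 61.3% G and C, beside 56.3% for coding genes. The 6 windows with AAGATGGC are shown as 24 bases around the motif, since in 5 of them it starts 6 to 21 bases after the start site.
Atpaf2 (chr11:60417013-60417036, minus strand): tcatgaggAAGATGGCggcgtgct
Cox10 (chr11:64079436-64079459, minus strand): gggctagcAAGATGGCggcgccca
Cox20 (chr1:178319070-178319093, plus strand): cgctccctAAGATGGCcgccgccg
Ndufaf8 (chr11:120098936-120098959, plus strand): cagggcccAAGATGGCggcgccct
Tmem126b (chr7:90475963-90475986, minus strand): gaggcgctAAGATGGCggcgtccc
Uqcc2 (chr17:27133865-27133888, minus strand): cggggcccAAGATGGCcgctctcc

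In each of these stretches AAGATGGC is followed by C or G and then GC-rich bases. The Cox20 match lies 75 bases before the start site. Of these 6 genes, Atpaf2 and Tmem126b passed, and both fell, with log2 changes of -0.22 and -0.22. Of all tested genes 40.8% passed and 20.6% fell. Uqcc2 (0.13), Cox10 (0.06) and Ndufaf8 (-0.03) did not pass, and Cox20 was not tested. A match to a motif is a description of the letters, not of a bound factor.

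For complex I, 3 of 14 factors passed (21.4%, beside 40.8% of all genes): 1 rose and 2 fell, with a median change of -0.02 over the 14. Ndufaf2 (ENSMUSG00000068184) is a late-acting factor and a paralogue of the subunit Ndufa12, which takes its place in the finished complex. It was counted at 197, 211 and 182 normalised reads in WT females and at 276, 266 and 314 in LCHADD females. In males the counts were 188, 217 and 195 in WT and 204, 252 and 232 in LCHADD. All 3 LCHADD females lay above the WT females, while the male groups overlapped. Such a separation within a sex is a description, and its share over all genes was not computed. It was also seen for factors that did not pass. The averaged change was 0.36 on the log2 scale (SE 0.08, adjusted p = 0.0029 by limma), or 129% of WT.

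Ndufaf1 and Tmem126b belong, with Ecsit and Acad9, to the mitochondrial complex I assembly (MCIA) complex, which builds the membrane arm. Ndufaf1 (ENSMUSG00000027305) had 635, 688 and 585 normalised reads in WT females against 494, 481 and 592 in LCHADD females. Its male counts were 769, 736 and 680 in WT and 637, 677 and 719 in LCHADD. The groups overlapped in both sexes, by 1 library in females, and the averaged change was -0.20 (SE 0.07, adjusted p = 0.036 by limma). Tmem126b (ENSMUSG00000030614) had 662, 632 and 537 normalised reads in the WT against 538, 419 and 541 in the LCHADD libraries of females, and 635, 672 and 638 against 521, 586 and 652 in those of males. These groups overlapped as well, and the averaged change was -0.22 (SE 0.08, adjusted p = 0.043 by limma). Each passed in 11 of 22 alternatives. With 1 library left out, Ndufaf1 no longer passed (adjusted p = 0.056 to 0.096 by limma) in 8 of 12 cases, those without WT female 1 or 2, WT male 1 or 2, LCHADD female 1 or 2, or LCHADD male 1 or 2. Tmem126b no longer passed (adjusted p = 0.066 to 0.12) in 8 of 12, those without WT female 1 or 2, any WT male, LCHADD female 2, or LCHADD male 1 or 2. The other MCIA partners did not pass, with averaged changes of -0.04 (SE 0.04) for Ecsit and 0.10 (SE 0.06) for Acad9. Ecsit had the tightest libraries of all the factors, with 1231 to 1294 normalised reads in WT and 1200 to 1241 in LCHADD and a residual SD of 0.026 on the log2 scale. Timmdc1, which works on the membrane arm beside them, was at -0.01 (SE 0.06).

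The remaining complex I factors did not pass. Foxred1 (ENSMUSG00000039048), a late-acting flavoprotein and the one with the most reads among them, had 1381, 1313 and 1294 in the WT against 1229, 1287 and 1210 in the LCHADD libraries of females, and 1498, 1390 and 1468 against 1347, 1350 and 1404 in those of males. All LCHADD females lay below the WT females, the male groups overlapped by 1 library, and the averaged change was -0.09 (SE 0.05, adjusted p = 0.13 by limma). Ndufaf3 and Ndufaf4, partners in the early matrix arm, were at -0.13 (SE 0.08) and 0.08 (SE 0.07). Ndufaf5, the hydroxylase of Ndufs7, and its partner Ndufaf8 were at 0.08 (SE 0.08) and -0.03 (SE 0.11). Ndufaf7, a mitochondrial methyltransferase, was at -0.13 (SE 0.06), and Ndufaf6, an early factor, at 0.05 (SE 0.08). Nubpl, which delivers iron-sulfur clusters, was at 0.19 (SE 0.08, adjusted p = 0.074 by limma) and was the only factor with an unadjusted p under 0.05 that did not pass after adjustment. It passed in 2 of 22 alternatives, without LCHADD male 1 (0.24, adjusted p = 0.033 by limma) and with scaling by nuclear reads.

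None of the 4 complex II factors passed in the average of both sexes, beside 40.8% of all genes. An unadjusted p under 0.05 was seen in 0 of 4, and edgeR and DESeq2 called none either. Sdhaf2 (ENSMUSG00000024668), which attaches flavin to Sdha, had 1153, 1147 and 1069 normalised reads in the WT against 1054, 1031 and 1101 in the LCHADD libraries of females, and 1208, 1213 and 1252 against 1152, 1202 and 1279 in those of males. The groups overlapped in both sexes, and the averaged change was -0.05 (SE 0.05) with a 95% interval of -0.16 to 0.06. Sdhaf4, which binds flavinylated Sdha, was at 0.09 (SE 0.12). Within females Sdhaf4 passed without LCHADD female 2, left out alone or together with WT female 3. Sdhaf1 and Sdhaf3, which bring iron-sulfur clusters to Sdhb, were at -0.06 (SE 0.15) and 0.13 (SE 0.08). Sdhaf1 was counted at 33.9 to 47.7 normalised reads, and 1733 bases of its exons overlap a gene on the opposite strand, E130208F15Rik.

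For complex III, 2 of 6 factors passed (33.3%, beside 40.8% of all genes): Uqcc1 fell and Uqcc3 rose. Uqcc1 and Uqcc2 bind newly made cytochrome b together, and Uqcc3 joins afterwards to stabilise it. Uqcc1 (ENSMUSG00000005882) had 3697, 3482 and 3193 normalised reads in WT and 2443, 2378 and 2661 in LCHADD females. It had 3818, 3942 and 3754 in WT and 3185, 3548 and 3315 in LCHADD males. Every LCHADD library lay below every WT library of its sex, a description whose share over all genes was not computed. The averaged change was -0.33 (SE 0.05, adjusted p = 1.3e-04 by limma), or 79.3% of WT, the smallest p of the 41 factors.

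Uqcc3 (ENSMUSG00000071654) had 412, 368 and 456 normalised reads in the WT against 571, 584 and 539 in the LCHADD libraries of females, and 447, 434 and 428 against 477, 436 and 580 in those of males. The female groups did not overlap and the male groups did. The averaged change was 0.32 (SE 0.08, adjusted p = 0.0041 by limma). Uqcc2 (ENSMUSG00000024208) had 1286, 1372 and 1470 normalised reads in the WT against 1838, 1490 and 1838 in the LCHADD libraries of females, and 1362, 1441 and 1287 against 1275, 1222 and 1462 in those of males. All LCHADD females were above the WT females while the male groups overlapped. The averaged change of 0.13 (SE 0.07, adjusted p = 0.13 by limma) did not pass. Uqcc2 passed in 2 of 22 alternatives, both without LCHADD female 2, the lowest library of its group. With that library alone left out the change was 0.18 (adjusted p = 0.016 by limma). The 3 factors that act on the Rieske protein Uqcrfs1 did not pass: Bcs1l, which carries it across the membrane, was at 0.06 (SE 0.06), Lyrm7, which holds it in the matrix, at 0.09 (SE 0.07), and Ttc19, which helps clear its fragments, at -0.12 (SE 0.07). Ttc19 passed in 1 of 22 alternatives, without WT female 3 and LCHADD female 2 together (adjusted p = 0.043 by limma). Within females Ttc19 also passed with LCHADD female 2 alone left out.

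**Figure D2:**
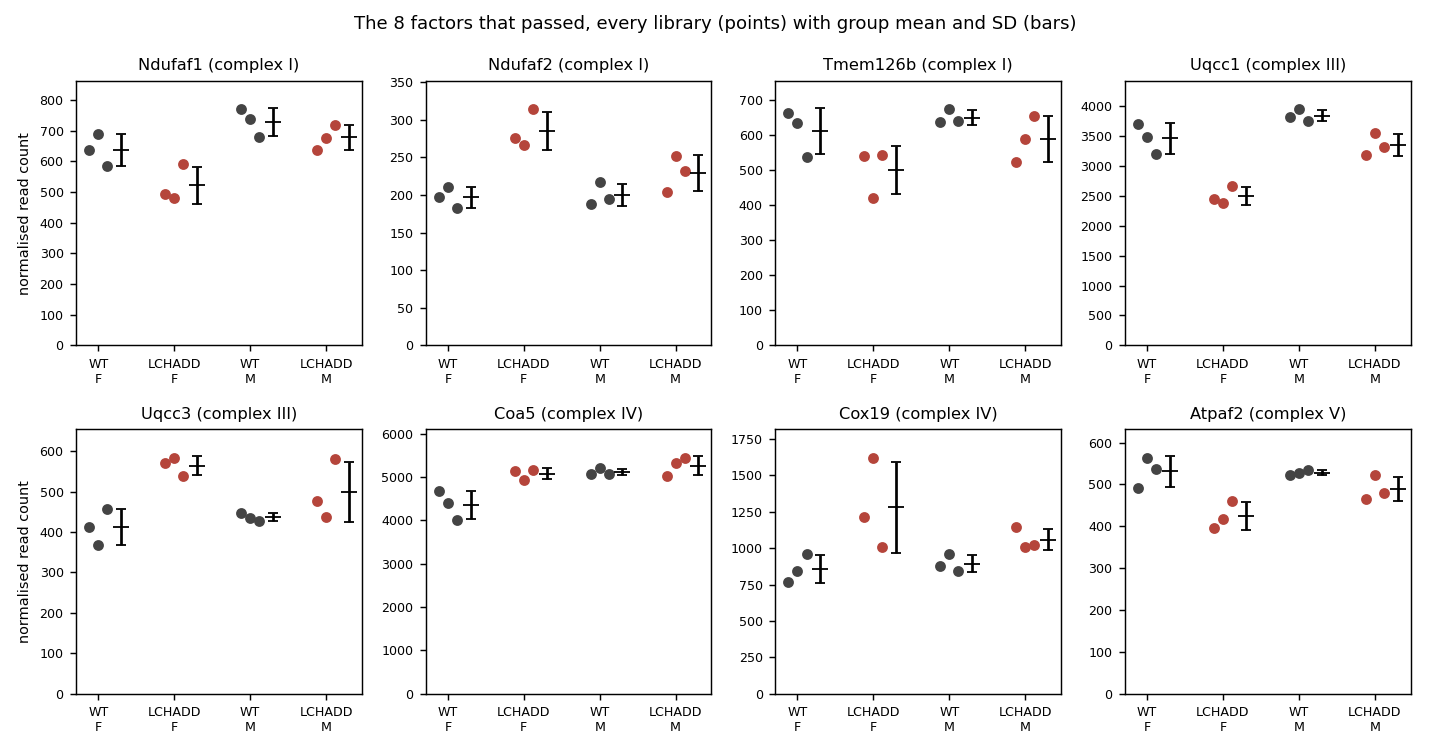
Normalised read counts (vertical axes, from 0) of the 8 factors that passed, in every library: WT in grey, LCHADD in red, females (F) and males (M), with the group mean and SD as bars (n = 3). Cox19 is the one factor whose 6 LCHADD libraries all lie above the 6 WT libraries, and Uqcc1 and Atpaf2 are lower in every LCHADD library than in any WT library of the same sex. The share of all genes separated within each sex was not computed.

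For complex IV, 2 of 14 factors passed and both rose, 14.3% beside 40.8% of all genes that passed and 20.3% that rose. Cox19 (ENSMUSG00000045438), a small cysteine-rich protein of the intermembrane space that works with the copper chaperone Cox11, had 767, 845 and 962 normalised reads in WT and 1214, 1620 and 1007 in LCHADD females. It had 878, 957 and 845 in WT and 1143, 1009 and 1023 in LCHADD males. All 6 LCHADD libraries lay above all 6 WT libraries, which held in this or the opposite direction for 1 of the 41 factors and for 19.7% of all genes. The averaged change was 0.40 (SE 0.10, adjusted p = 0.0040 by limma), or 132% of WT. LCHADD females spread widely, with the highest library at 1620 and the lowest at 1007.

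Coa5 (ENSMUSG00000026112), required early in complex IV assembly, had 4667, 4392 and 4007 normalised reads in the WT against 5134, 4925 and 5158 in the LCHADD libraries of females, and 5072, 5208 and 5068 against 5023, 5325 and 5444 in those of males. The female groups did not overlap, while LCHADD males lay on both sides of the WT males. The averaged change was 0.13 (SE 0.05, adjusted p = 0.040 by limma), and it passed in 9 of 22 alternatives. With 1 library left out it passed only without WT female 1, LCHADD female 2 or LCHADD male 1, and the adjusted p was 0.053 to 0.10 by limma in the other 9 cases. The WT female group had the lowest normalised mean, 4355 ± 332 (SD, n = 3). Cox14 (ENSMUSG00000023020), which with Coa3 holds newly made COX1, had 1498, 1505 and 1435 normalised reads in the WT against 1550, 1561 and 1793 in the LCHADD libraries of females, and 1541, 1551 and 1375 against 1481, 1739 and 1525 in those of males. Its averaged change was 0.11 (SE 0.06, adjusted p = 0.14 by limma), with female groups that did not overlap and male groups that did. Coa3 itself was at 0.02 (SE 0.06).

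The heme enzymes Cox10 and Cox15, which convert heme B to heme A in turn, were at 0.06 (SE 0.06) and -0.01 (SE 0.06), and Surf1, which helps place heme in COX1, was at -0.10 (SE 0.07). None of the 3 passed. Among the copper factors, Sco1, which loads copper into COX2, was at 0.04 (SE 0.08) and Coa6, its partner, at 0.19 (SE 0.12). Cox18, which inserts COX2 into the membrane, was at 0.10 (SE 0.12), and Coa7, a cysteine-rich factor of the intermembrane space, at -0.11 (SE 0.07).

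Cox17, the copper donor for Sco1 and Cox11, ranged from 13.9 to 35.1 normalised reads in WT and from 21.6 to 50.7 in LCHADD, with an averaged change of 0.53 (SE 0.25, adjusted p = 0.11). Cox16, which works at the copper site of COX2, ranged from 7.78 to 27.4 in WT and from 11.7 to 43.2 in LCHADD, with an averaged change of 0.60 (SE 0.31, adjusted p = 0.13). Cox11, which builds the copper site of COX1, ranged from 13.3 to 25.9 in WT and from 12.5 to 33.2 in LCHADD, with a change of 0.06 (SE 0.25). Cox17 and Cox16 each passed in 2 of 21 alternatives. Cox17 passed without WT male 2 (0.68, adjusted p = 0.047 by limma) and Cox16 without LCHADD female 2 (0.83, adjusted p = 0.019 by limma). Both also passed without WT female 3 and LCHADD female 2 together. The groups overlapped for all 3, and a 1.5-fold difference was not excluded by their intervals at this depth. Their counts carry a further limit, since annotated exons overlap other genes: 688 bases of Cox11 lie opposite Tom1l1, and 2102 bases of Cox16 and 257 of Cox17 are shared on the same strand with the predicted genes Gm20498 and Gm21987. Some other factors have such overlaps too, among them Acad9 (559 bases, same strand, Gm43079) and Cox15 (444 bases, opposite strand, Entpd7).

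Cox20 and Sco2 fell below the filter. Cox20, a COX2 chaperone, was listed at 0 to 3.43 normalised reads. Sco2, the copper chaperone related to Sco1, was listed at 0 in all 12 libraries. Exons of Sco2 share 856 bases with Tymp on the same strand and 829 with Ncaph2 on the opposite strand. How the authors' counting treated reads over such shared bases is not given in the sources used here, so a listed 0 does not show that the gene was silent.

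For complex V, 1 of 3 factors passed (33.3%, beside 40.8% of all genes). Atpaf2 (ENSMUSG00000042709), the chaperone of the alpha subunit of the F1 head, had 492, 564 and 537 normalised reads in the WT against 395, 418 and 460 in the LCHADD libraries of females, and 523, 528 and 534 against 465, 522 and 480 in those of males. Every LCHADD library lay below every WT library of its sex, in males by less than 1 normalised read at the closest pair. The share of all genes separated in this way was not computed. The averaged change was -0.22 (SE 0.06, adjusted p = 0.013 by limma). Atpaf1, the chaperone of the beta subunit, was at 0.04 (SE 0.06). Tmem70 (ENSMUSG00000025940), which serves the membrane ring of c subunits, had 1348, 1331 and 1228 normalised reads in the WT against 1313, 1348 and 1408 in the LCHADD libraries of females, and 1283, 1380 and 1432 against 1295, 1447 and 1368 in those of males. Its groups overlapped in both sexes and its averaged change was 0.03 (SE 0.05), with a 95% interval of -0.08 to 0.15.

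Within females alone, 8 of 41 factors passed, beside 33.8% of all genes. Ndufaf2, Uqcc2, Uqcc3, Coa5 and Cox19 rose (16.7% of all genes rose), and Ndufaf1, Uqcc1 and Atpaf2 fell (17.2% fell). Among the factors that passed in females, the highest changes were 0.56 for Cox19 (SE 0.14, adjusted p = 0.0057 by limma) and 0.53 for Ndufaf2 (SE 0.12, adjusted p = 0.0029), and the lowest was -0.47 for Uqcc1 (SE 0.07, adjusted p = 2.0e-04 by limma). Uqcc2, at 0.32 (SE 0.10, adjusted p = 0.019), passed in females and not in the average. Tmem126b, at -0.29 (SE 0.12, adjusted p = 0.066), passed in the average and not in females. When only the 6 libraries from females were fitted, 4 factors passed, Uqcc1, Cox19, Ndufaf2 and Uqcc3, and the calls of Uqcc2, Coa5, Ndufaf1 and Atpaf2 were lost.

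Within males 0 of 41 factors passed by limma, beside 15.5% of all genes, and 3 had an unadjusted p under 0.05: Acad9, Uqcc1 and Cox16. By edgeR and DESeq2 the count was 0 as well, with 2 at an unadjusted p under 0.05 by each. Uqcc1 came closest, at -0.20 (SE 0.07, adjusted p = 0.084). The count in males moved with the libraries in the fit: it was 2 without LCHADD female 2 (Uqcc1 and Cox16), a library of the other sex that contributes to the pooled variance, and 2 with the 6 male libraries alone (Uqcc1 and Cox19). For the other factors that passed in the average, the male changes were 0.19 for Ndufaf2, 0.18 for Uqcc3, 0.24 for Cox19, 0.04 for Coa5, -0.10 for Ndufaf1, -0.15 for Tmem126b and -0.11 for Atpaf2.

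All 8 factors that passed in the average had changes of the same sign in both sexes, larger in size in females. These 8 were chosen on that average, which favours a shared sign, so the shared sign does not show agreement between the sexes. Over the 41 factors the direction was shared for 29, or 70.7%, beside 78.0% of all genes, and the female change was the larger for 33, or 80.5%, beside 65.7%. The difference between the sexes was tested itself, as an interaction, and 0 of 41 factors passed by limma, edgeR or DESeq2, beside 0.00721% of all genes (1 gene). The interaction had an unadjusted p under 0.05 for 5 factors: Ndufaf5, Uqcc1, Uqcc2, Lyrm7 and Coa3. For 4 of these, the change was positive in females and negative in males: 0.25 and -0.10 for Ndufaf5, 0.32 and -0.05 for Uqcc2, 0.25 and -0.08 for Lyrm7, and 0.20 and -0.16 for Coa3. A larger change in females is therefore a description of these libraries, not a tested difference between the sexes.

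**Figure D3:**
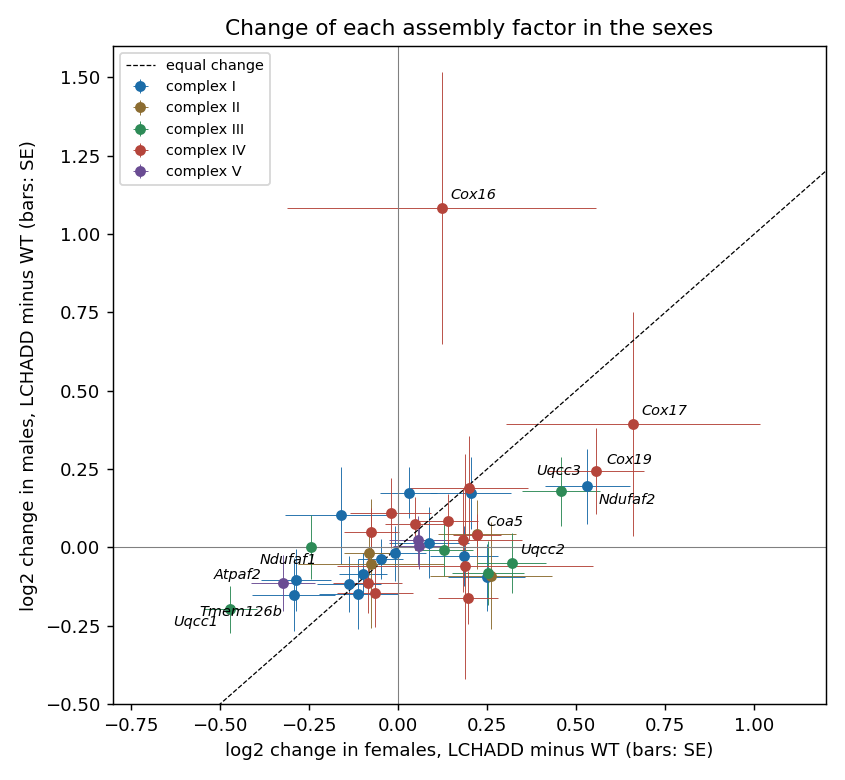
Change of each of the 41 tested factors in females (horizontal axis) and in males (vertical axis), both as log2 of LCHADD minus WT with SE bars; the dashed line marks equal changes. For 33 of the 41 factors the female change is the larger in size; Cox16, at 0.12 in females and 1.08 in males, stands alone at the top with the widest male SE.

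A list of 76 nuclear-encoded subunits of the same complexes also holds Atpif1, the inhibitor of the ATP synthase, which is not a structural subunit. Of these 76 genes 36 passed (47.4%, beside 40.8% of all genes): 4 rose and 32 fell (beside 20.3% and 20.6% of all genes), with a median of -0.11. By complex, 16 of 36 subunits of complex I fell and 1 rose, 3 of 4 of complex II fell, 5 of 9 of complex III fell and 1 rose, 3 of 11 of complex IV fell and 1 rose, and 5 of 16 of complex V fell and 1, Atpif1, rose. The subunits with the smallest p were Ndufs7 (-0.51) and Ndufv1 (-0.39) of complex I, Sdhc (-0.45) and Sdha (-0.33) of complex II, Uqcrc1 (-0.39) and Uqcr11 (-0.37) of complex III, Cox7a1 (-0.72) and Cox8b (-0.46) of complex IV, and Atpif1 (0.65) and Atp5d (-0.20) of complex V. Of the 13 protein-coding genes of the mitochondrial genome, 8 rose and 0 fell by limma, with a median of 0.38; edgeR called 10 and DESeq2 12, all higher. With scaling by nuclear reads, 22 subunits fell and 5 rose, with a median of -0.06, and 11 mitochondrial genes rose. Whether the factors and the subunits differ from each other as groups was not tested.

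**Figure D4:**
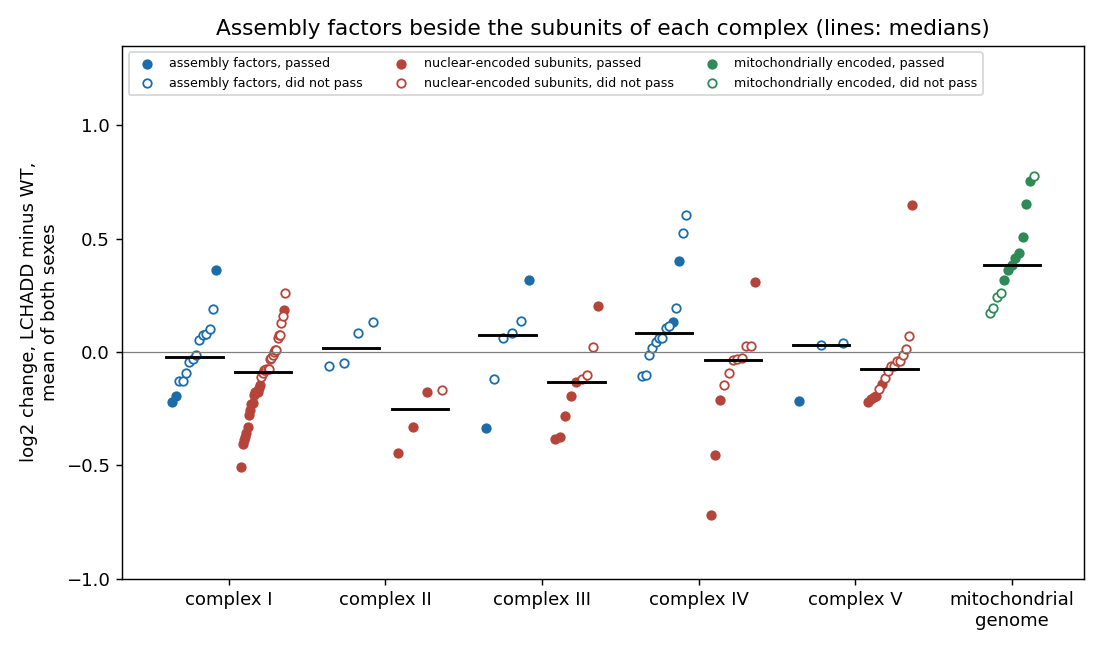
Log2 change of LCHADD minus WT, averaged over both sexes (vertical axis), for each tested assembly factor (blue) and nuclear-encoded subunit (red) by complex, and for the 13 genes of the mitochondrial genome (green); black lines are medians and filled points passed. The subunit medians lie below 0 in all 5 complexes (-0.03 to -0.25), the factor medians between -0.02 and 0.08.

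The median over the 41 factors of the deviation from the WT mean of the same sex stayed between -0.05 and 0.05 in all 12 libraries. That median covers factors that moved both ways. Each WT library is part of the WT mean it is set against, which narrows the WT range. The ranges of WT and LCHADD are therefore not like for like. Taken by complex, the 6 complex III factors were at 0.14, 0.15 and 0.15 in the LCHADD females and at -0.09, -0.00 and -0.01 in the LCHADD males, beside -0.08 to 0.03 in WT. The 14 complex IV factors ran from -0.02 to 0.23 in LCHADD, with the highest value in LCHADD female 3, and from -0.04 to 0.05 in WT. For the 76 subunits it lay between -0.05 and 0.03 in WT, and in LCHADD it ran from -0.21 in female 2 to 0.06 in female 3, with 5 of 6 LCHADD libraries below all WT libraries. For the mitochondrial genome it ran from -0.14 in WT male 3 to 0.13 in WT male 2, and from 0.12 in LCHADD female 2 to 0.72 in LCHADD female 3, which also had the highest share of mitochondrial reads, so the genotypes overlapped by 1 library each.

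**Figure D5:**
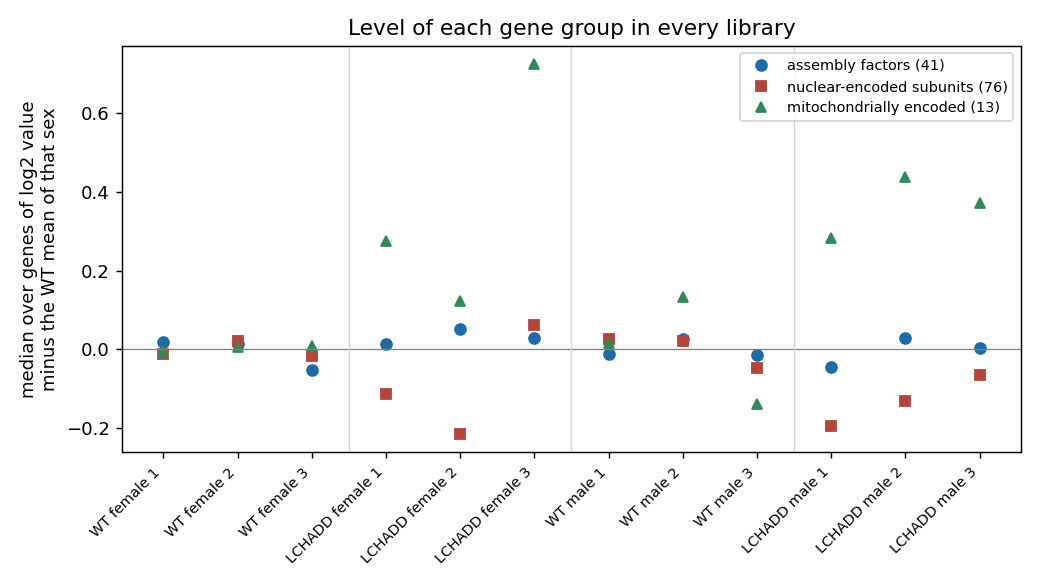
Median over genes of the log2 value minus the WT mean of that sex (vertical axis) in each of the 12 libraries, for the 41 assembly factors (circles), 76 nuclear-encoded subunits (squares) and 13 mitochondrially encoded genes (triangles). The circles, medians over factors of all 5 complexes, stay between -0.05 and 0.05 in WT and LCHADD alike, while the LCHADD squares reach -0.21 and the triangles 0.72. Each WT library is part of the WT mean it is set against, which narrows the WT range.

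To set each factor beside the subunit it acts on (or, for Ndufaf2, the subunit that takes its place, Ndufa12), 28 pairs of factor and subunit, here called the client, were drawn up from known functions, after the values had been seen; 26 pairs could be tested, over 14 clients, so that many pairs share a client. Both genes passed in 2 pairs, in the same direction each time: Ndufaf2 (0.36) with Ndufa12 (0.18, adjusted p = 0.0064), and Atpaf2 (-0.22) with Atp5a1 (-0.22, adjusted p = 0.0051 by limma). In 14 pairs only the client passed. Among them, Ndufaf5 was at 0.08 beside -0.51 for Ndufs7 and Sdhaf2 at -0.05 beside -0.33 for Sdha. Uqcrfs1, the client of Bcs1l, Lyrm7 and Ttc19, was at -0.28. The COX2 gene mt-Co2 rose by 0.36 (adjusted p = 0.0032), beside its factors Cox18, Sco1, Coa6 and Cox16, none of which passed. In 2 pairs only the factor passed: Uqcc1 and Uqcc3, which moved in opposite directions, beside their common client mt-Cytb at 0.26 (adjusted p = 0.063). In the remaining 8 pairs neither passed, among them Atpaf1 (0.04) with Atp5b (-0.06) and Cox14 (0.11) with mt-Co1 (0.19). The difference in change between a factor and its client was not tested.

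A further list of 36 factors, which act in assembly or in making iron-sulfur clusters and are not among the 43, had 32 genes tested. Of these 13 passed (40.6%, beside 40.8% of all genes), 9 higher and 4 lower, with a median change of 0.03. The 6 with the smallest p were Nfu1, which hands clusters to complexes I and II (0.76, SE 0.06, adjusted p = 3.1e-07), Iscu, the scaffold on which clusters are built (-0.34, adjusted p = 8.5e-05), Tmem126a, a complex I factor and paralogue of Tmem126b (0.35, adjusted p = 5.1e-04), Coa4 of complex IV (0.55, adjusted p = 0.0012), Lyrm4, the partner of the cysteine desulfurase (0.50, adjusted p = 0.0020), and Lrpprc, which stabilises mitochondrial messenger RNA (0.27, adjusted p = 0.0027 by limma). Tmem126a was thus higher where its paralogue Tmem126b was lower, though Tmem126b passed in only 11 of 22 alternatives. Of the 11 iron-sulfur cluster genes tested, 4 rose and 2 fell. In males 3 of the 32 passed (9.38%, beside 15.5% of all genes).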

How the data were processed

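RNA from 12 heart ventricle libraries was sequenced on a NovaSeq, per the labels. Per the submitters' processing notes, bcl2fastq and DESeq2 were used with build GRCm39; the aligner, counter, annotation and strand setting: not given in the sources used here. In the deposited table there is a normalised count signal per gene: for each library, 100% of the values were within 0.01 of a whole multiple of 1 step, so each is a read count divided by a size factor. Symbols came from GENCODE vM21 (GRCm38) by Ensembl ID; 51633 of 51912 IDs matched.

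Genes with a value of at least 10 in at least 3 of 12 libraries were fitted with limma 3.58.1 (R 4.3.3; 4 group means, empirical Bayes with a trend) on log2(value + 1), which understates the change of low genes. Females, males, their mean and their difference were tested, with Benjamini-Hochberg adjustment over all 13865 genes and a threshold of 0.05. Intervals are 95% intervals of the fit. The members and lists were chosen with earlier results of these data known. All 43 factors are named; values in every library are given, per complex, for up to 4 that passed, by smallest adjusted p, and for the one with the highest values among those that did not. The named other factors are the 6, and the named subunits the 2 per complex, with the smallest adjusted p among those that passed or, for subunits, overall; others were named for their role or after their values were seen.

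The alternatives for each factor were 22: added values of 5 and 0.5, no filter, a filter at 50, TMM scaling, scaling by nuclear reads, edgeR 4.0.16 and DESeq2 1.42.0 on the recovered reads, the replicate number as a block, each of the 12 libraries left out, and WT female 3 and LCHADD female 2 left out together, a pair taken over from an earlier analysis. For Cox11, Cox16, Cox17 and Sdhaf1 there were 21 instead, since the filter at 50 removed them. Counts of calls were also made with each sex fitted alone and with a 1.5-fold threshold. Scripts were tested on simulated data. Promoter windows are RefSeq's (GRCm38.p6).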

Additional observations from a re-analysis of the deposited data

How the results depend on the processing

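Ndufaf2, Uqcc1, Uqcc3, Cox19 and Atpaf2 passed in all 22 alternatives run for a factor, with highest adjusted p of 0.0095, 0.0011, 0.014, 0.014 and 0.038; Ndufaf1 and Tmem126b passed in 11 and Coa5 in 9. The 8 factors that passed in the average of both sexes became 5 without a filter on low values and 5 with the replicate number as a block (Ndufaf1, Tmem126b and Coa5 were lost in both), and 0 with the 1.5-fold threshold, which left 2033 of all genes. Leaving out 1 library gave 5 to 8, with 5 without WT female 2, WT male 1 or LCHADD male 2, each of which lost the same 3 genes. The 8 in females became 4 with the females fitted alone (Uqcc1, Cox19, Ndufaf2 and Uqcc3), 0 with the 1.5-fold threshold, and 5 to 10 with 1 library left out, with 5 without WT female 2 or LCHADD female 1. The 0 in males became 2 with the males fitted alone, 3 without WT female 3 and LCHADD female 2 together (Uqcc1, Cox19 and Cox16), and 0 to 2 with 1 library left out. Without that pair, 11 passed in the average. On the recovered reads edgeR called 5709 of all genes and 7 factors (not Coa5), and DESeq2 5646 and 8. The cause of these moves was not tested. Counts for the interaction were 0 in all alternatives run, and no count reversed. Same-numbered WT and LCHADD libraries did not deviate together (correlations of -0.05 to 0.03 over 6 pairs). The labels do not say whether same-numbered libraries belong together, and these correlations cannot decide it. Depth limits Cox11, Cox16, Cox17 and Sdhaf1, counted at under 60 normalised reads.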
